A study of Rattus norvegicus with 9 samples.

Results

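Mitochondrial ribosomal proteins build the ribosome that works inside mitochondria, and their genes were followed here in rat liver. The members are all genes whose single symbol on the array starts with Mrpl or Mrps followed by a digit. They came to 73 genes on 97 probe sets, of 14217 genes with a single symbol on the array. Where a gene had several probe sets, the brightest by mean log2 signal stood for it, and all 73 lay above the filter on dim probe sets, as did 10432 genes in all. Of the 73 proteins, 48 belong to the large and 25 to the small subunit, with Mrps18a and Mrps30 counted in the large subunit, where they sit. A counterpart in the bacterial ribosome is known for 43, and 30 are specific to mitochondria.

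The study assigned 36 Wistar rats, labelled male and weighing 180 to 220 g, at random to a control, a model and a drug group of 12. Liver RNA of 3 rats per group was hybridised, 1 rat per Affymetrix array, which gives 9 arrays. The series title names the drug 7-P; the treatment that makes the model, the dose and duration of 7-P, whether the drug group also received the model treatment, and the age of the rats are not given in the sources used here. Compared were model against control, drug against model and drug against control. They share arrays and are not independent of each other.

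The mitochondrial ribosome translates the few proteins that mitochondrial DNA encodes, all of them core subunits of the respiratory chain and the ATP synthase. Its ribosomal RNAs are made inside the organelle, whereas every one of its proteins is encoded in the nucleus, translated in the cytosol and imported. Hepatocytes are rich in mitochondria, which carry part of the urea cycle, fatty acid oxidation and much of the ATP supply of the liver.

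The labelled tissue was checked against its markers. The 9 measured hepatocyte markers were high on every array, the transport protein transthyretin (Ttr) for example at 12.13, 12.11 and 12.20 on the control arrays, and the median model minus control difference of these markers was 0.05 on the log2 scale. The Gapdh 3′ to 5′ signal ratio, a measure of how intact the RNA and its labelled copy are, was 1.52, 3.14 and 3.07 on the control arrays, 4.09, 12.7 and 9.77 on the model arrays and 1.31, 9.20 and 8.71 on the drug arrays. By this ratio model 2, model 3, drug 2 and drug 3 stood apart from the other 5 arrays. The actin ratio ordered them differently: it was 4.23, 8.41 and 7.59 on the control, 12.8, 10.7 and 7.31 on the model and 3.99, 11.5 and 8.63 on the drug arrays, highest on model 1 and lower on model 3 than on control 2 and control 3. Control 2 and drug 3 stood apart in another way: Xist was low (2.65 and 3.05 against 8.06 to 10.9) and the Y-linked Eif2s3y high (6.99 and 7.17 against at most 2.53). All rats were labelled male. Control 2 and drug 3 had the pattern of that label, and the other arrays, every model array among them, did not. The other sex markers set the same arrays apart. Cyp2c11 was at 11.3 on control 2 and 12.1 on drug 3, against at most 5.22 elsewhere. Cyp2c12 was at 5.82 and 8.19 on them, against at least 11.9 elsewhere. In model against control, this pattern and the group cannot be fully told apart. The trimmed mean of the deposited signal ranged from 33.6 to 81.1 units over the arrays. Results are given after quantile normalization, as log2 signal; a difference of 1 is a doubling. The P values rest on the spread between the 3 rats within a group, pooled over all 3 groups and moderated across probe sets. A comparison of 2 groups thus also uses the spread of the group left out of it.

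Most mitochondrial ribosomal protein genes had lower signal in the model livers than in the control livers, but no gene passed the test. The fitted difference was below 0 for 59 of the 73 genes (80.8%), against 48.9% of all 18625 probe sets tested. Its median was -0.44, with quartiles of -0.70 and -0.18, while the median over all probe sets was 0.02. At an adjusted p of 0.05 (limma, Benjamini-Hochberg over all probe sets) 0 of 73 genes were called, and 0% of all probe sets were. At an unadjusted limma p under 0.05, 12 members were lower (16.4%, against 5.54% of all probe sets) and 2 were higher (2.74%, against 6.51%). The 3 model values all lay below the 3 control values for 24 genes (32.9%, against 10.9%), and all above them for 4 genes (5.48%, against 11.8%). In whole liver, fewer cells of a type and less RNA per cell cannot be told apart.

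**Figure D1:**
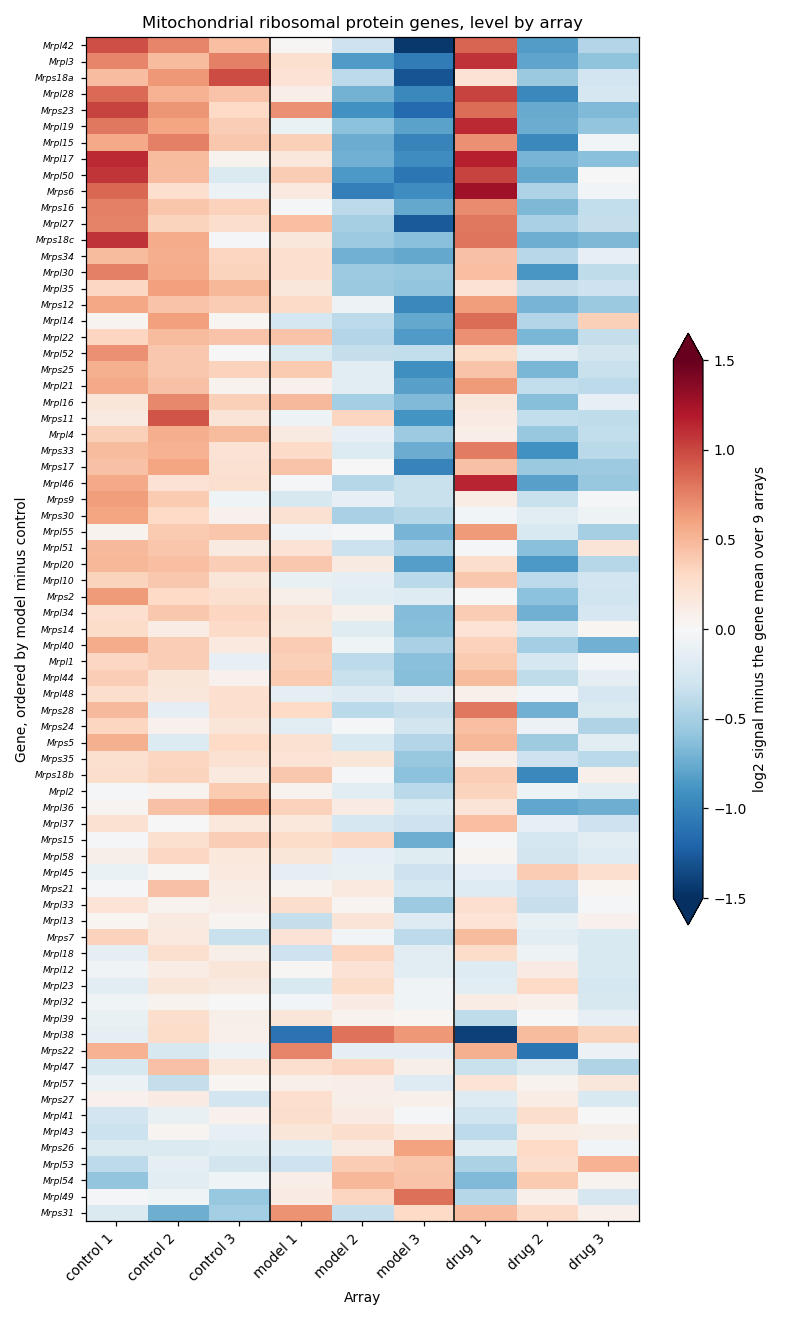
Log2 signal of each of the 73 genes minus its own mean over the 9 arrays, with genes in rows ordered by the model minus control difference and arrays in columns. Most genes are above their mean on the 3 control arrays and on drug 1, and below it on model 2, model 3, drug 2 and drug 3.

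The array-by-array levels show where that difference lay. For each gene the mean over the 9 arrays was subtracted, and the median over the 73 genes was taken on each array. It was 0.326, 0.336 and 0.164 on the control arrays (0.275 ± 0.0967, SD, n = 3), 0.180, -0.142 and -0.490 on the model arrays (-0.151 ± 0.335, n = 3) and 0.331, -0.374 and -0.239 on the drug arrays (-0.0938 ± 0.374, n = 3). Model 1 lay within the control range and drug 1 close to its upper end, so neither group was separated from control by this level. The median SD of a member was 0.199 among control, 0.395 among model and 0.430 among drug arrays, and that of all probe sets was 0.364, 0.409 and 0.482. The members, each read by the brightest probe set of its gene, were thus less spread than all probe sets mainly among the control arrays. The part of brightness in this was not tested.

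**Figure D2:**
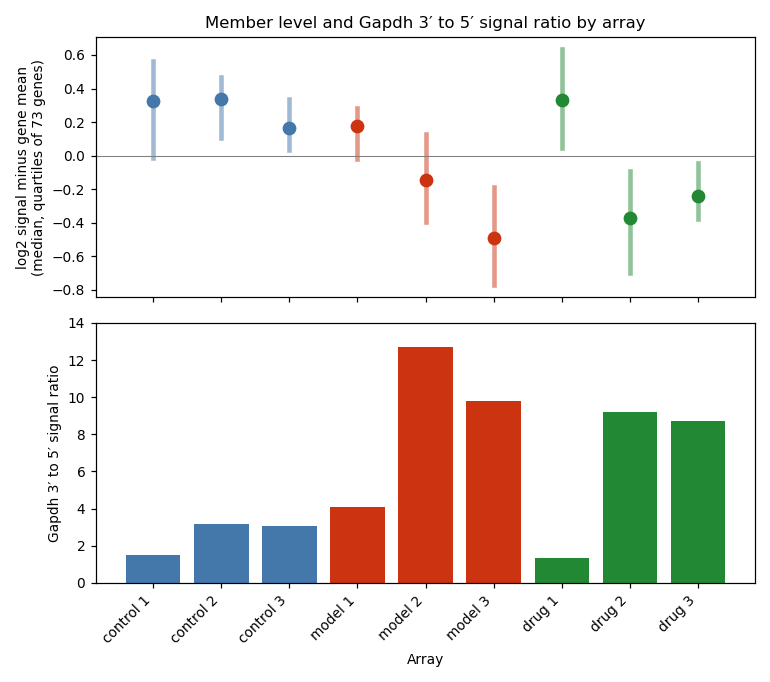
Upper panel, median (point) and quartiles (bar) over the 73 genes of the log2 signal minus the gene mean, by array; lower panel, the Gapdh 3′ to 5′ signal ratio of the same array. The 4 arrays with a ratio of 8.71 or more are the 4 with a member median below 0.

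Within the groups, the same arrays were high or low for most genes. Drug 1 exceeded drug 2 and drug 3 for 58 of the 73 genes (79.5%, against 38.5% of all probe sets), and model 1 exceeded model 2 and model 3 for 52 (71.2%, against 36.8%). Model 3 was the lowest model array for 59 (80.8%, against 33.6%). Model 2 and model 3 were both below all control arrays for 50 genes (68.5%, against 20.9%), whereas model 1 was below all control arrays for 29 (39.7%, against 27.6%). Without model 1 the median model minus control difference was -0.61, and 56 genes (76.7%) had no overlap between the groups, against 43.2% of all probe sets on the same arrays. On all arrays it was 28 genes (38.4%), against 22.6%. Without model 3 the median was -0.23.

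Large-subunit genes are taken first. The 10 members with the smallest unadjusted p in model against control hold 8 of them, with fitted differences of -1.30 to -0.63.

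Mrps18a, one of several paralogues related to a bacterial small-subunit protein, is placed in the large subunit of the mitochondrial ribosome. Its log2 signal was 6.84, 7.03 and 7.36 in control, 6.60, 5.99 and 5.09 in model and 6.59, 5.82 and 6.09 in drug livers. All model and drug values lay below all control values, with model 3 lowest. The model minus control difference was -1.18 (SE 0.383, limma adjusted p = 0.384).

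Mrpl3, the counterpart of a bacterial protein that contacts the ribosomal RNA near the catalytic centre, was at 6.99, 6.73 and 7.00 in control and 6.48, 5.40 and 5.20 in model livers. In drug livers it was at 7.33, 5.46 and 5.64, so drug 1 was the highest of all 9 arrays while drug 2 and drug 3 lay with model 2 and model 3. The model minus control difference was -1.21 (SE 0.499, limma adjusted p = 0.405). Mrpl4, another counterpart of a bacterial large-subunit protein, varied less, at 7.76, 7.95 and 7.88 in control, 7.54, 7.28 and 6.87 in model and 7.51, 6.84 and 7.04 in drug livers. Its model and drug values all lay below its control values, with a model minus control difference of -0.63 (SE 0.26, limma adjusted p = 0.403).

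Mrpl19 and Mrpl28 also have bacterial counterparts in the large subunit. Mrpl19 was at 6.50, 6.30 and 6.08 in control, 5.61, 5.09 and 4.91 in model and 6.83, 4.96 and 5.12 in drug livers. Mrpl28 was at 7.23, 6.91 and 6.81 in control, 6.48, 5.68 and 5.42 in model and 7.40, 5.42 and 6.14 in drug livers. For both, control and model did not overlap and drug 1 was above every control array. The model minus control differences were -1.09 for Mrpl19 (SE 0.459, limma adjusted p = 0.407) and -1.13 for Mrpl28 (SE 0.47, adjusted p = 0.407). Mrpl35, also with a bacterial counterpart, was at 7.17, 7.48 and 7.35 in control, 7.03, 6.31 and 6.27 in model and 7.07, 6.51 and 6.55 in drug livers. Model 1 and drug 1 were just below the control arrays, and the model minus control difference was -0.80 (SE 0.281, limma adjusted p = 0.384).

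Mrpl42 and Mrpl52 are large-subunit proteins with no known bacterial counterpart. Mrpl42 was at 7.52, 7.28 and 7.00 in control, 6.56, 6.23 and 5.10 in model and 7.42, 5.71 and 6.11 in drug livers. It had the lowest model minus control difference of all 73 genes, -1.30 (SE 0.483, limma adjusted p = 0.395), to which model 3 contributed the lowest value. Mrpl52 was at 7.77, 7.49 and 7.10 in control and 6.87, 6.74 and 6.72 in model livers. Its 3 model arrays lay close together and below every control value. In drug livers it was at 7.37, 6.92 and 6.81, with drug 3 inside the model range. The difference was -0.68 (SE 0.254, limma adjusted p = 0.395).

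Among the small-subunit genes, Mrps16 and Mrps34, both altered in inherited human mitochondrial disease, had the smallest unadjusted p. Mrps16, with a bacterial counterpart, was at 8.47, 8.13 and 8.05 in control, 7.69, 7.32 and 6.95 in model and 8.42, 7.03 and 7.35 in drug livers. The groups control and model did not overlap, and the difference was -0.90 (SE 0.36, limma adjusted p = 0.401). Mrps34, specific to mitochondria, was at 7.67, 7.73 and 7.52 in control, 7.45, 6.48 and 6.42 in model and 7.63, 6.78 and 7.07 in drug livers. Model 1 was only just below the lowest control array, and the difference was -0.86 (SE 0.328, limma adjusted p = 0.397).

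**Figure D3:**
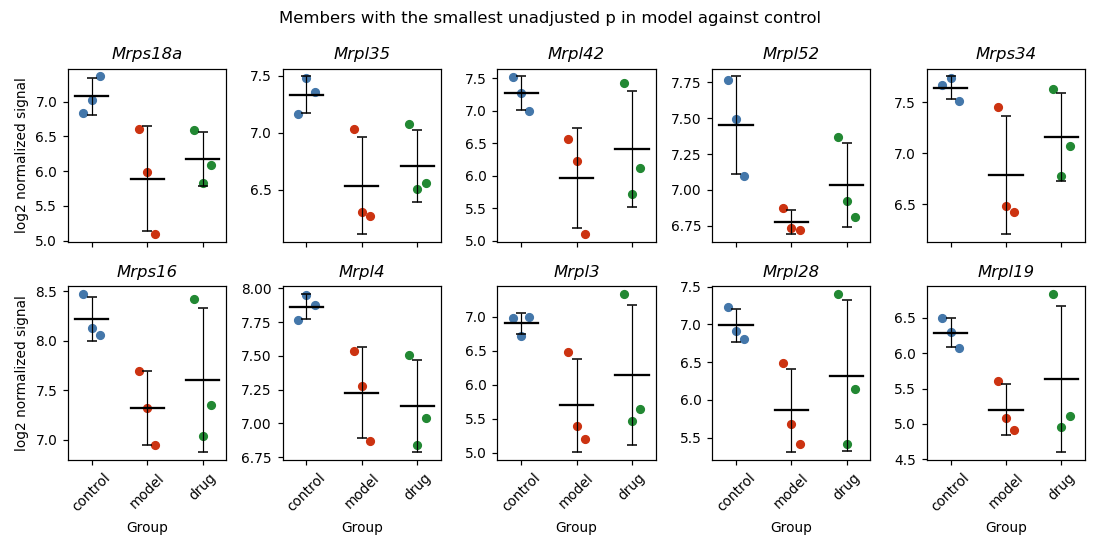
Log2 normalized signal of the 10 members with the smallest unadjusted p in model against control, by group (points, single arrays in replicate order; horizontal line, mean; error bar, SD, n = 3). In all 10 genes the 3 model arrays lie below the 3 control arrays, and drug 1 is the highest drug array.

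A minority of 14 genes had a model minus control difference above 0. Mrps31, a small-subunit protein specific to mitochondria, was at 5.16, 4.65 and 4.87 in control and 6.05, 5.03 and 5.67 in model livers, a difference of 0.69 (SE 0.309, limma adjusted p = 0.414); model 2 lay inside the control range. Mrpl54 ranged from 8.57 to 9.10 in control and from 9.26 to 9.66 in model livers, with no overlap and a difference of 0.61 (SE 0.289). Mrpl43, Mrpl49 and Mrps26 were the others with every model value above every control value, with differences of 0.33, 0.64 and 0.39; a second probe set of Mrpl49 was at -1.27. All 4 are proteins specific to mitochondria. Mrpl12, which also binds the mitochondrial RNA polymerase, had a difference of -0.06 (SE 0.213) and overlapping groups.

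Both subunits had like medians in model against control. The median difference was -0.43 for the large subunit, with 38 of 48 genes below 0, and -0.44 for the small subunit, with 21 of 25 below 0. By origin, 41 of the 43 genes with a bacterial counterpart were below 0, with a median of -0.53, and 18 of the 30 mitochondria-specific genes were, with a median of -0.30. Model values all lay below control values for 24 genes (10.9% of all probe sets did). These were 16 of the 43 genes with a bacterial counterpart and 8 of the 30 mitochondria-specific genes. The difference between these classes was not tested.

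**Figure D4:**
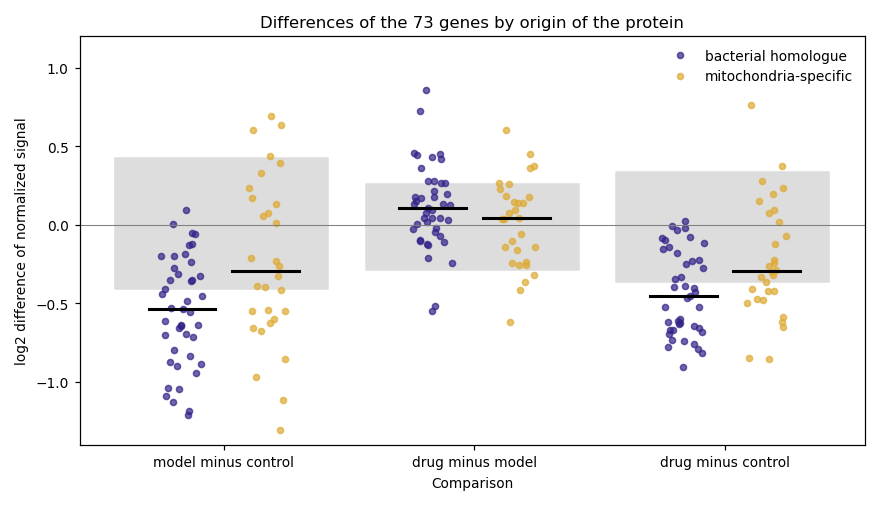
Fitted log2 differences of the 73 genes in the 3 comparisons, by origin of the protein (points, genes, spread sideways at random; black line, median of the class; grey band, quartiles of all 18625 probe sets). The class with bacterial counterparts has medians of -0.53, 0.11 and -0.45 and the mitochondria-specific class -0.30, 0.04 and -0.29 in model minus control, drug minus model and drug minus control.

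The Gapdh ratio moved with the members. In a fit with group terms and the log2 Gapdh ratio, which reads the ratio among arrays of the same group, 58 of the 73 genes had a slope below 0. Replicate 1 had the lowest ratio in every group, so within groups the ratio cannot be told apart from the replicate number. The median slope was -0.23 log2 units of signal per doubling of the ratio, against 0.01 over all probe sets. At an adjusted limma p of 0.05, 21 members had a downward slope (6.65% of all probe sets did) and 3, Mrpl38, Mrpl53 and Mrpl54, an upward one (7.66% of all). The lowest slope was that of Mrpl17, -0.67 (limma adjusted p = 0.00363). Mrpl38, a large-subunit protein specific to mitochondria, went the other way with a slope of 0.74 (adjusted p = 0.00632). It was at 6.13, 6.54 and 6.34 in control, 5.16, 7.09 and 6.92 in model and 4.87, 6.74 and 6.60 in drug livers, so that model 1 and drug 1 were its lowest arrays.

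With the Gapdh term in the fit, the median model minus control difference of the members was -0.06, with 43 of 73 genes below 0, against a median of -0.01 over all probe sets. The bacterial-counterpart class then had a median of -0.10 with 29 of 43 below 0, and the mitochondria-specific class 0.03 with 14 of 30 below 0. Some genes kept part of their difference: Mrps18a was at -0.76 (SE 0.416, limma adjusted p = 0.636) and Mrpl42 at -0.44 (SE 0.397, adjusted p = 0.782) with the term. Others lay nearer 0, Mrpl3 at -0.16, Mrpl19 at -0.14 and Mrpl28 at -0.16. Mrpl38 went from 0.05 to -1.20 and Mrps31 from 0.69 to 1.06. Arrays of like ratio were also compared, a choice made after the data were seen. Model 1 against control 2 and control 3 had a member median of -0.08, with 47 of 73 genes below 0, against 50% of all probe sets. These arrays are alike in the Gapdh ratio only, since model 1 has the highest actin ratio of all 9. Every model array, model 1 included, had a ratio above every control array (model 1 at 4.09, control 2 at 3.14). For the model group the ratio and the group therefore cannot be told apart. The actin ratio as the term in place of the Gapdh ratio, also chosen after the data were seen, gave a member median of -0.34 with 60 of 73 genes below 0, so the size of the model minus control difference depends on which of the ratios enters the fit.

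**Figure D5:**
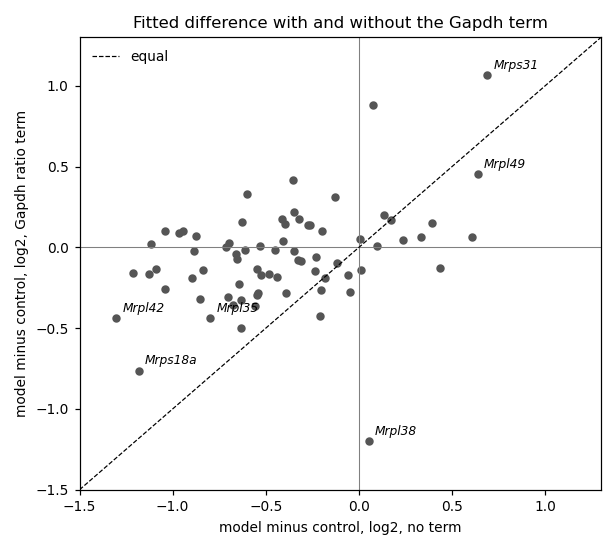
Model minus control difference of each of the 73 genes (points) in the fit without the Gapdh ratio term (horizontal axis, log2) and with it (vertical axis, log2); the dashed line marks equal values. The median is -0.44 without and -0.06 with the term, and Mrpl38 is the gene farthest below the line.

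Stretches of promoter are shown for 2 of the genes with non-overlapping control and model values, because the ETS-family letters, known from promoters of many nuclear genes for mitochondrial proteins, stand close to their start. They are the 200 bases before the RefSeq gene start on build GRCr8, written 5′ to 3′ on the strand of the gene, with capitals marking CCGGAAG or its reverse complement CTTCCGG. Mrps18a is on the minus strand at chr9:22367381-22367580 and Mrpl52 on the plus strand at chr15:31852736-31852935. The same stretch of Mrpl42, the gene with the lowest difference, on the minus strand at chr7:32028523-32028722, has no capitals. Both Mrpl42 and Mrps18a have YY1 letters in the longer window described next, not wholly within the bases shown. The same stretches of Mrps16, Mrpl4, Mrpl3 and Mrpl28 hold no ETS-family letters either and are not shown. Mrpl3 and Mrpl4 do have ETS-family letters in the longer window, not wholly within those bases, whereas Mrps16 and Mrpl28 have none there.
Mrps18a: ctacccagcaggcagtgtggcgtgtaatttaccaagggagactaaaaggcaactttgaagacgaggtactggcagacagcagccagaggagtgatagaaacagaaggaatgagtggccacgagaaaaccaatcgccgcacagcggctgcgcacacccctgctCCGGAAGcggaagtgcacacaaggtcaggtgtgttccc
Mrpl52: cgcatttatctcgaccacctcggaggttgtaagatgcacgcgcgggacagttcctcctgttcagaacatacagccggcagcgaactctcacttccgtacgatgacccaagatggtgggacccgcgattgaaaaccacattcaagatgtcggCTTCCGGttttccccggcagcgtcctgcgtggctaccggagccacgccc
Mrpl42: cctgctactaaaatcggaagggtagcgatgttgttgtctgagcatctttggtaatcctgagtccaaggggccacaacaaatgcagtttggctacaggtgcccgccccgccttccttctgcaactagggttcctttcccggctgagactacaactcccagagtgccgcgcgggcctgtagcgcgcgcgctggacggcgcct

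RefSeq windows of 300 bases, 250 before to 50 after the start, were matched by gene identifier for 59 of the 73 genes. The ETS letters CCGGAAG, on either strand, were in 20 of the 59 (33.9%), against 8.75% of all 33469 windows. Those 33469 are not limited to genes on the array or above the signal filter, whereas all members are both. The part of this in the shares was not tested. The NRF1 letters GCATGCGC were in 5 (8.5%, against 2.47%) and the YY1 letters AAGATGGCG in 8 (13.6%, against 1.73%). No 1 of these motifs contains another; at least 1 of the 3 was in 29 windows (49.2%, against 12.0%). Members with the ETS letters had a median model minus control difference of -0.30, with 15 of 20 below 0, and those without them -0.48, with 33 of 39 below 0. For the YY1 letters the order was the other way, with -0.58 and 7 of 8 below 0 against -0.41 and 41 of 51 below 0. For the NRF1 letters it was -0.40, with 4 of 5 below 0, against -0.45, with 44 of 54 below 0. A match describes the letters of the window and is not a binding site.

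In drug against model the members had small fitted differences of both signs, and none passed the test. The fitted difference was above 0 for 47 and below 0 for 26 of the 73 genes (52.1% of all probe sets were below 0), with a median of 0.08 against -0.02 over all probe sets. At an adjusted limma p of 0.05, 0 members were called (0% of all probe sets), and an unadjusted p under 0.05 was reached by 0 members in either direction (1.47% of all probe sets higher, 1.80% lower). Drug values all lay below model values for 4 genes (5.48%, against 4.70%) and above them for 0 genes (against 3.35%). The 4 were Mrpl39, Mrpl43, Mrpl47 and Mrpl49. Drug 1 was above every model array for 40 of the 73 genes (54.8%, against 29.2%). Without drug 1 the median was -0.11, with 53 genes below 0, and without model 3 it was -0.05, with 40 below 0.

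The 6 members with the smallest unadjusted p in drug against model fall in both directions, each with a limma adjusted p of 0.998. Mrpl49 was at 6.21, 6.40 and 6.91 in model and 5.65, 6.17 and 5.84 in drug livers, a difference of -0.62 (SE 0.284) between groups that did not overlap. Mrpl47, the counterpart of a bacterial protein beside the exit of the peptide tunnel, was at 5.85, 5.91 and 5.68 in model and 5.26, 5.39 and 5.15 in drug livers, a difference of -0.55 (SE 0.252). Its control values, 5.36, 6.04 and 5.76, overlapped with both. Mrpl36, a very small protein with a bacterial counterpart, had a difference of -0.52 (SE 0.314), with drug 1 inside the model range.

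Higher in drug livers by fitted value were Mrps6, Mrpl14 and Mrpl45. Mrps6, a small-subunit protein with a bacterial counterpart, was at 4.997, 3.82 and 3.92 in model and 6.12, 4.38 and 4.80 in drug livers, a difference of 0.86 (SE 0.499) with overlap. Mrpl14, in the large subunit with a bacterial counterpart, was at 6.43, 6.30 and 5.93 in model and 7.54, 6.25 and 7.05 in drug livers, a difference of 0.73 (SE 0.344). Mrpl45, which helps to hold the ribosome at the inner membrane, was at 6.31, 6.35 and 6.14 in model and 6.33, 6.83 and 6.71 in drug livers, a difference of 0.36 (SE 0.229). In all 3 genes at least 1 drug array lay inside the model range.

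Most members also had lower signal in the drug livers than in the control livers, again without passing the test; the control arrays are those of the first comparison. The fitted difference was below 0 for 63 of 73 genes (86.3%, against 51.5% of all probe sets), with a median of -0.39 against -0.02 over all. No gene passed an adjusted limma p of 0.05 (0% of all probe sets). At an unadjusted p under 0.05, 5 members were lower (6.85%, against 3.03%) and 1 was higher (1.37%, against 4.19%). Drug values all lay below control values for 12 genes (16.4%, against 6.49%) and above them for 3 (4.11%, against 6.05%). Drug 1 was at or above the lowest control array for 49 genes (67.1%, against 72.9% of all probe sets), and drug 2 and drug 3 were both below all control arrays for 45 (61.6%, against 21.2%). Without drug 1 the median was -0.59, and 53 genes (72.6%) had no overlap, against 43.0% of all probe sets on the same arrays. On all arrays it was 15 genes (20.5%), against 12.5%. Without control 2 and drug 3, the arrays apart in Xist and Eif2s3y, the member median was -0.48 for model minus control, 0.15 for drug minus model and -0.31 for drug minus control. Drug 1 against control 1, the 2 arrays with the lowest Gapdh ratios, gave a median of -0.01 in a comparison chosen after the data were seen.

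The 6 members with the smallest unadjusted p in drug against control each had a limma adjusted p of 0.683. The differences were -0.73 for Mrpl4 (SE 0.26), -0.79 for Mrpl36 (SE 0.314) and -0.91 for Mrps18a (SE 0.383). Mrps2, a small-subunit protein with a bacterial counterpart, was at 7.03, 6.70 and 6.63 in control and 6.40, 5.78 and 6.09 in drug livers, a difference of -0.69 (SE 0.249) without overlap. Mrpl30, also with a bacterial counterpart, was at 7.39, 7.18 and 6.96 in control and 7.08, 5.75 and 6.25 in drug livers, a difference of -0.82 (SE 0.364) with drug 1 inside the control range. Mrps31 was the one that was higher, at 5.85, 5.67 and 5.45 in drug livers, all above its control values, a difference of 0.76 (SE 0.309). Over all 3 groups, limma's moderated F test called 0 members at an adjusted p of 0.05 (0% of all probe sets). At an unadjusted p under 0.05 it named Mrpl4, Mrpl35 and Mrps18a, 3 of 73, against 7.45% of all probe sets.

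Several genes were read by more than 1 probe set, and these did not always go the same way. Of the 14 genes with 2 or more tested probe sets, 8 had model minus control differences of 1 sign. For Mrpl49 the chosen probe set gave 0.64 and the other -1.27. The 4 probe sets of Mrpl51 ranged from -1.14 to 0.13. The value of Mrpl49 above therefore belongs to 1 probe set and not to the gene as a whole.

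Lists of other genes of mitochondrial translation and its supply had medians between -0.27 and 0.18 in model against control. None of these genes passed an adjusted limma p of 0.05. Of 5 mitoribosome proteins with other names, 3 were below 0 (median -0.18), Aurkaip1 at -0.56 and Chchd1 at -0.78 among them, while Ptcd3 was at 0.47. Of 11 tested translation factors, 7 were below 0 (median -0.19). The elongation factor Tufm was at -0.99 (SE 0.397) and the ribosome recycling factor Mrrf at -0.67 (SE 0.29). The initiation factor Mtif2 was at 5.83, 5.39 and 6.28 in control and 7.31, 6.62 and 7.60 in model livers, a difference of 1.35 (SE 0.351, limma adjusted p = 0.384) upward, with no overlap.

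Of 18 aminoacyl-tRNA synthetase genes, which charge the transfer RNAs, 11 were below 0 (median -0.13), with Sars2 at -0.77. The 23 tested genes of ribosome assembly and ribosomal RNA modification were divided, 13 below and 10 above 0 (median -0.03). Of 15 genes that replicate, pack or transcribe mitochondrial DNA, 11 were below 0 (median -0.27). Tfam, which packs mitochondrial DNA and starts its transcription, was at -0.95 (SE 0.442) and the topoisomerase Top1mt at -1.14 (SE 0.457). Mterf1, named for transcription termination, was at 0.83 (SE 0.304). Of 9 regulators of mitochondrial biogenesis, 8 were above 0 (median 0.18). Of 16 genes of import, chaperones and mitochondrial mass, 11 were below 0 (median -0.20), the import receptor partner Timm50 at -0.64 and the outer-membrane channel Vdac2 at -0.69.

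Nuclear genes for respiratory chain and ATP synthase subunits, the partners of the proteins that this ribosome makes, had the same median as the members in model against control. It was -0.44 over 69 tested genes, with 55 below 0. At an unadjusted limma p under 0.05, 23 were lower (5.54% of all probe sets were). For 28, all model values lay below control values (10.9% of all probe sets). Of the 73 members, these counts were 12 and 24. The median of the respiratory chain and ATP synthase genes was 0.13 for drug minus model and -0.33 for drug minus control. The 44 tested cytosolic ribosomal protein genes had a median of -0.13 in model against control, with 27 below 0, and 0.08 and -0.09 in the other comparisons. No difference between these lists and the members was tested.

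Macrophage and leukocyte markers had medians above 0 in model against control. The 10 macrophage markers had a median difference of 0.66, with 7 above 0. Their level on an array, the median over the markers of the log2 signal minus each marker's mean, ranged from -0.788 to 0.157 in control, from 0.0319 to 0.730 in model and from -0.275 to 0.452 in drug livers. Of the 8 leukocyte markers, 7 were tested and 6 of these were above 0 (median 1.46); Cd79b was below the filter. Their level ranged from -0.853 to -0.252 in control, from 0.355 to 0.544 in model and from 0.0403 to 0.467 in drug livers. The 5 endothelial markers had a median difference of 0.45, with 3 above 0, the 6 stellate cell markers -0.21, with 4 below 0, and the 2 tested bile duct markers lay on either side of 0; Krt7 was below the filter. The part of these cells in the lower signal of the mitochondrial ribosomal protein genes was not tested.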

How the data were processed

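Liver RNA of 9 rats was hybridised to single-colour arrays. Per the labels, the deposited values are signal intensity per probe set on a linear scale; the submitters' processing notes name GCOS 1.2, and its settings and scaling are not given in the sources used here. From the deposited intensity, log2 values were quantile normalized between arrays, which removes differences in total RNA. Control probe sets were left out, and a filter at the 40th percentile of mean log2 signal left 18625 of 31042 probe sets. Of these 31042, 20826 have 1 gene symbol, 436 several and 9780 none. limma 3.58.1 (R 4.3.3) fitted all 9 arrays with a term per group and an intensity trend, with Benjamini-Hochberg adjustment over all 18625. The script was tested on simulated data. The genes given with an SE and an adjusted p are the 10, 6 and 6 members with the smallest unadjusted p in the 3 comparisons; from other lists at most 3 genes by unadjusted p in model against control. Mrpl and Mrps genes of other ranks are named by value alone or by pattern, chosen after their values were seen. The members and lists were chosen with earlier results of these data known. No array date or batch was used here. The number of arrays limits the precision. Alternatives were other normalizations, filters, an offset, probe set means, array weights, a Gapdh or actin ratio term, the replicate block and each array left out.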

Additional observations from a re-analysis of the deposited data

How the results depend on the processing

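No count of mitochondrial ribosomal protein genes past an adjusted limma p of 0.05 departed from 0 under any of the alternatives run, and all 22 named differences kept their direction and their side of the threshold in all 528 recomputed values (smallest adjusted p 0.0869). The median model minus control difference, -0.44, was -0.94 without normalization, -0.0577 with the Gapdh ratio term and -0.0832 on arrays of like Gapdh ratio, an alternative chosen after seeing the data, as was the actin ratio term, with which it was -0.34; leaving out 1 array at a time gave -0.61 to -0.23. The drug minus control median, -0.39, was -0.73 without normalization and -0.00988 on arrays of like Gapdh ratio, and -0.59 to -0.25 with 1 array left out. The drug minus model median, 0.08, had the other sign with array weights (-0.02), the Gapdh ratio term (-0.06), control 1 and drug 1 left out together (-0.11) and arrays of like Gapdh ratio (-0.00345); with 1 array left out it was -0.11 to 0.27. Without normalization the median over all probe sets was itself -0.40 in model against control and -0.36 in drug against control, and with trimmed mean scaling it was 0.16 in model against control.

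Genes without overlap between model and control numbered 28 (38.4%, against 22.6% of all probe sets), and 18 without normalization (24.7%, against 12.4%); leaving out 1 array gave 28 to 56, the highest without model 1 (76.7%, against 43.2%). Between drug and model they numbered 4 (5.48%, against 8.05%), with 1 without normalization (against 5.51%), 2 with trimmed mean scaling (against 7.86%) and 11 without control 1 and drug 1 (15.1%, against 20.1%). Leaving out 1 array gave 4 to 17, the highest without model 1 (23.3%, against 21.6%), then 11 without drug 1 (against 20.1%), 10 without drug 2 (against 19.0%) and 7 without model 3 (against 15.6%). Between drug and control they numbered 15 (20.5%, against 12.5%), with 0 without normalization (against 4.93%), 3 with median centring (4.11%, against 12.1%) and 57 without control 1 and drug 1 (78.1%, against 52.5%); leaving out 1 array gave 15 to 53, the highest without drug 1 (72.6%, against 43.0%). Fewer arrays make an absence of overlap easier to reach by construction; for the other settings the cause was not tested. With the replicate block the medians were -0.44, 0.08 and -0.39, as without it. All groups hold the same replicate numbers, so the block leaves every fitted difference and its direction unchanged by construction. Only the P values could move, and 0 members passed. Arrays of the same number had correlations of their deviations from -0.00522 to 0.482 over the 3 comparisons. The highest were those of replicate 1, at 0.195, 0.389 and 0.482, and the others reached at most 0.182. The numbers were not taken as pairs in the main fit. The 3 arrays per group and their unequal Gapdh ratios limit what these signals can resolve.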
